A study of Hydra vulgaris with 99 samples.

Results

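The 23 loci described here were selected from 25879 loci of the Hydra transcriptome because their RNA was higher in tissue cut at mid-column to regenerate a head than in tissue cut just below the head. Hydra is a small freshwater polyp whose tube-shaped body column carries a head with tentacles and a mouth at the apical end and an adhesive basal disk at the foot. A piece of column regrows a head or a foot depending on which of its ends is exposed by the cut, and tissue nearer the original head is known to regrow a head more readily. Wnt signalling from the head organizer marks the apical end, and the column between the ends holds dividing epithelial cells, interstitial stem cells and the precursors of stinging cells.

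Groups are called as in the sample titles. H5 is the tip that regenerates a head (apical regeneration) at a cut through the 50% level of the column, F5 is the tip that regenerates a foot at the same 50% level (basal regeneration), and H8 is the tip that regenerates a head after decapitation at the 80% level. Each of these 3 series was sampled at 10 times after section: at once (0 h), after 0.5, 1 and 2 h, then after 4, 8 and 16 h, and on the following days after 24, 36 and 48 h. Head is the apical region cut off below the tentacles, Foot is the basal disk with the lower peduncle, and Intact is the whole animal, all without regeneration. All animals were untreated polyps of the Jussy strain of Hydra vulgaris, and each of the 33 groups had biological replicates A, B and C, each made of tissue from 20 to 25 pooled animals. PolyA RNA was sequenced in 99 directional libraries. The read counts given for the transcript sequences totalled 26401348 to 54273942 per library, with a median of 33209894. All values are bulk measurements, in which fewer cells of a type and less RNA per cell cannot be told apart.

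Levels are CPM, the share of a library's reads that fall on a locus scaled to a common library total, or log2(mean CPM + 1) of a group, with a pseudocount of 1. The score that selected the loci, called G here, is the H5 minus H8 difference in log2(mean CPM + 1), averaged over 0, 0.5 and 1 h. A member had G of at least 0.8, a Head level within 2 log2 units of the Foot level, H5 above H8 at each of the 3 times and a log2 level of at least 2 in H5 at 0 h. Loci whose mean level in H5 and F5 at 0 h exceeded both Head and Foot by 1 log2 unit or more were dropped. Of 24691 loci that met the limit on Head and Foot, 35 reached the minimum of G, 32 of these had the level asked for at 0 h, and 9 of the 32 were dropped by the limit against both ends. The 23 that remained are numbered from the highest G of 1.87 (member 1) to the lowest of 0.80 (member 23), so that the upper limit of 150 loci was not reached. The last 3 members had G of 0.860, 0.843 and 0.803, and the next 3 loci below the minimum had 0.794, 0.786 and 0.768. The H5, H8, F5, Head and Foot values named in this paragraph chose the members and are given as a description, without a test.

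None of the locus identifiers was found in the RefSeq gene table, so the loci carry no gene names or functions here, and no cell type could be checked against markers. The 23 loci hold 52 transcript sequences, and 13 of the 23 (56.5%) consist of 1 sequence, against 46.6% of all loci. Together they took 0.0900% of all reads. Every member had reads in every library, the lowest count being 7 reads, and all 23 were among the 20883 loci with enough reads to be tested. Of the 31 sequences that held at least 10% of their locus's reads, all 31 were higher in H5 than in H8 at 2 h, a time that the selection did not use. The smallest of these differences was 0.13 log2 units, from 3.48 and 3.10 CPM. Sequences with smaller shares went both ways, from -0.88 to 0.46 log2 units. The same share over all sequences was not counted. CPM is not divided by transcript length, so levels are compared between groups within a locus and not between loci.

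Replicate A of H5 at 0 h and replicate A of F5 at 0 h stood apart: their mean Pearson correlations with their own replicates were 0.951 each over 9219 loci, against a median of 0.988 over all libraries. Both entered the selection. Member 1 (loc00582) had 27.2, 10.7 and 11.6 CPM in replicates A, B and C of H5 at 0 h, against 4.76, 3.13 and 2.07 CPM in H8 at 0 h. Selection without the A libraries gave 25 loci, 20 of which were members, and selection without B or without C gave 23 loci each, 22 of which were members. At the times of the selection, all H5 libraries lay above all H8 libraries in 21 members at 0 h, in 21 at 0.5 h and in 23 at 1 h, against 7.19%, 4.58% and 4.53% of all loci tested. The selection used these differences, so nothing is read from these counts.

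Both H5 and F5 are cut surfaces at the 50% level, and the score G used H5. In F5 at 0 h, also tissue of the 50% level, 22 of the 23 members lay between H5 and H8 and 1 lay at or below H8. The median H5 minus F5 difference at 0 h was 0.83 log2 units, and the median F5 minus H8 difference was 0.23. Member 1 had 6.01, 5.34 and 4.43 CPM in F5 at 0 h in replicates A, B and C, below each of its H5 libraries and overlapping the range of H8. Member 2 (loc09408) had 10.2, 13.7 and 13.9 CPM in H5 at 0 h, 3.64, 3.32 and 3.97 CPM in F5 and 3.09, 2.60 and 3.17 CPM in H8. The selection used H5, F5 and H8 at 0 h, so the place of F5 between them is described and not tested, and the loci are called by their rule.

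Most members were higher at both ends of the animal than in H8 at 0 h. Their level in Foot was above that in Head in 20 of 23 members. The share was 51.2% of the 10903 loci that met the limit on Head and Foot and the minimum level in H5 at 0 h. Head and Foot levels entered the selection, and the count of members is a description. Both ends were above H8 at 0 h in 17 members, and both were above H5 at 0 h in 10, for which no share over all loci was counted. Member 2 had 25.4, 21.9 and 28.2 CPM in Head and 97.4, 78.3 and 93.9 CPM in Foot, all above its H5, F5 and H8 levels at 0 h. Member 5 (loc13221) was the only member more than 1 log2 unit higher in Head than in Foot, with 57.5, 51.5 and 58.9 CPM in Head and 13.7, 14.0 and 12.3 CPM in Foot. Against whole animals, the median member differed by 0.67 log2 units in Foot, with 19 of 23 above Intact, and by -0.13 in Head, with 9 of 23 above.

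**Figure D1:**
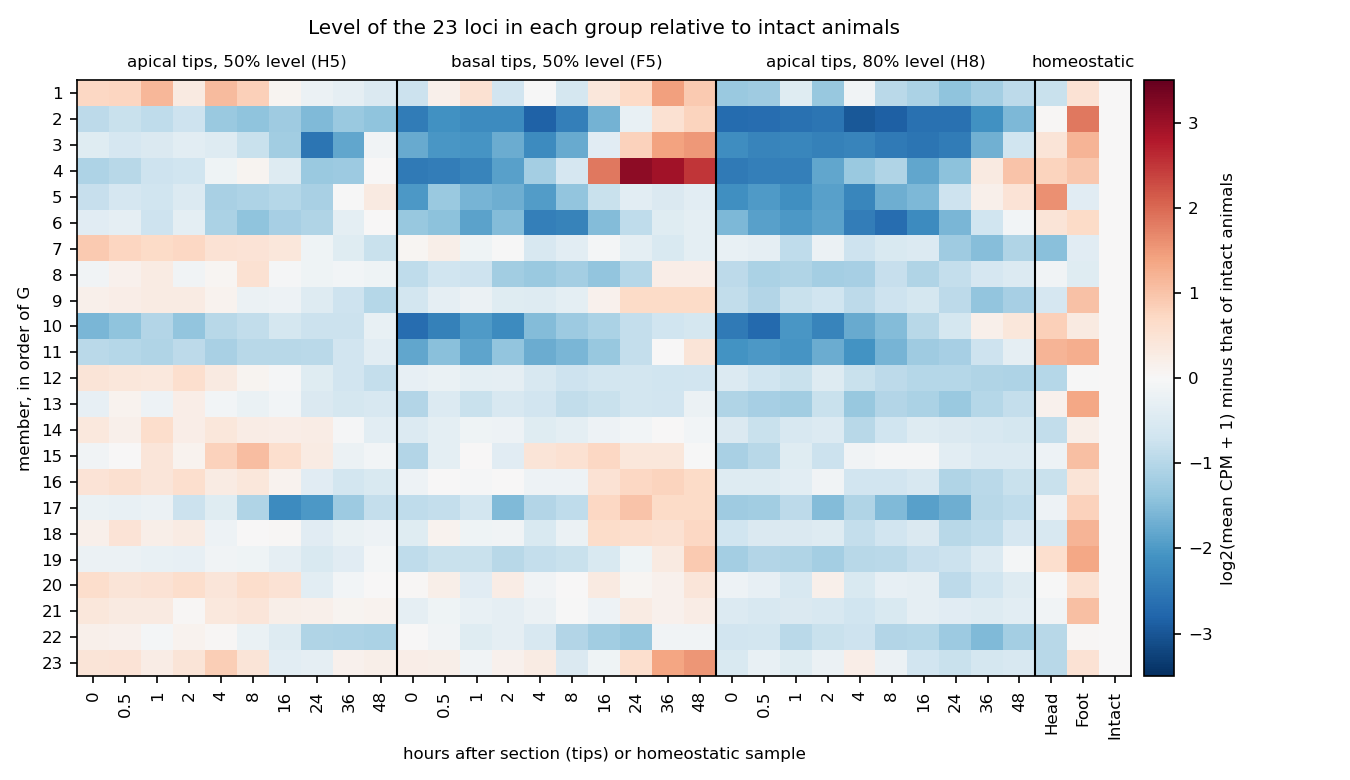
Level of each of the 23 members, top to bottom in order of G, in each group, as the difference in log2(mean CPM + 1) from intact animals; columns are hours after section in the H5, F5 and H8 series, then Head, Foot and Intact. At 0 h the median member differed from Intact by -0.12 in H5, -0.88 in F5 and -1.06 in H8, and at 48 h by -0.27 in H5, 0.44 in F5 and -0.58 in H8.

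The H5 to H8 difference was then tested at the 7 times that the selection did not use, with edgeR's quasi-likelihood test over all 20883 loci. A call required a p below 0.05 after Benjamini-Hochberg adjustment over these loci and a log2 fold change of 1 or more in size. At 2 h, 13 of 23 members were called higher in H5 than in H8 and none lower, against 0.369% of all loci called higher and 0.867% called lower. The fold changes of the 23 members were all positive, from 0.47 to 2.96 on the log2 scale with a median of 1.03, against a median of -0.01 over all loci tested. All 3 H5 libraries were above all 3 H8 libraries in 21 members, against 3.74% of all loci.

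Members 2 and 1, named by rule, had the largest differences at 2 h among called members with a mean of at least 10 CPM in H5 and no overlap of libraries. Member 2 had 18.8, 12.5 and 11.8 CPM in H5 at 2 h, against 2.79, 3.02 and 4.30 CPM in H8. Its libraries did not overlap, and its log2 fold change was 2.14 ± 0.27 (SE, adjusted p = 6.80e-09 by edgeR). Member 1 had 13.2, 9.51 and 13.6 CPM in H5, against 3.82, 2.79 and 3.04 CPM in H8. Its log2 fold change was 1.93 ± 0.26 (SE, adjusted p = 6.97e-08 by edgeR), again with no overlap. Member 3 had the highest fold change of the 23 at 2 h, from low levels, with 8.36, 4.18 and 6.46 CPM in H5 and 0.717, 0.642 and 1.13 CPM in H8. That difference was 2.96 on the log2 scale (SE 0.44, edgeR adjusted p = 7.72e-07).

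Member 5 was the only member more than 1 log2 unit higher in Head than in Foot. It had 14.5, 10.5 and 12.5 CPM in H5 at 2 h, against 3.94, 3.24 and 5.05 CPM in H8. Its log2 fold change was 1.65 ± 0.22 (SE, adjusted p = 7.43e-08 by edgeR). Member 4 had 6.35, 4.97 and 3.99 CPM in H5 and 1.90, 1.77 and 1.84 CPM in H8, a log2 fold change of 1.52 ± 0.29 (SE, adjusted p = 0.000174 by edgeR). The smallest difference was that of member 20, with 73.8, 69.6 and 184 CPM in H5 and 50.9, 46.3 and 143 CPM in H8, whose ranges overlapped. Its log2 fold change was 0.47 and it was not called. Member 7 had 587, 544 and 1273 CPM in H5 and 219, 297 and 738 CPM in H8. Its replicate C was the highest library in both groups, and its log2 fold change of 0.96 (SE 0.47) had an edgeR adjusted p of 0.684. Replicates of the same letter deviated together in H5 and H8, and each H5 library of member 7 was above the H8 library of its letter. With the letter as a block within each time, its log2 fold change was 1.05 and it was called (edgeR adjusted p = 0.000159).

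The difference was still present at 4 and 8 h. At 4 h, 15 members were called higher in H5 than in H8 and none lower, against 0.421% and 1.09% of all loci, with a median log2 fold change of 1.21 and a range of 0.65 to 2.71. A fit of the 6 libraries of that comparison alone called 5: members 4, 8, 12 and 14 of the 15, and member 7 besides. Replicate A of H8 at 4 h had the third lowest mean correlation with its own replicates, 0.962. At 8 h, 11 members were called higher and none lower, against 0.431% and 1.46% of all loci, with a median of 1.02 and a range of 0.51 to 2.67. In the fit of all libraries, members 1, 2, 3, 4, 6, 8, 12 and 15 were called at 2, 4 and 8 h. In it, 17 members were called at one or more of these times. Without the replicate block, members 7, 10, 17, 18, 20 and 23 were not called higher at any time tested, although all 23 fold changes were positive at 2, 4 and 8 h. With the block within each time, member 7 was called higher at 2, 4, 8, 16, 24 and 36 h and member 20 at 8 h, with a log2 fold change of 1.06 (edgeR adjusted p = 6.35e-05). All H5 libraries were above all H8 libraries in 19 members at 4 h, against 4.11% of all loci, and in 22 members at 8 h, against 7.09%.

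From 16 h on, fewer members were called. At 16 h, 8 members (1, 2, 3, 4, 6, 8, 12 and 13) were called higher in H5 than in H8 and none lower, against 0.374% and 1.27% of all loci, with a median log2 fold change of 0.85. At 24 h, members 1, 2 and 16 were called higher and none lower, against 0.283% and 0.958% of all loci, with a median of 0.60. Without the B libraries, the count was 3 at 16 h (members 2, 4 and 12) and 1 at 24 h (member 16). All H5 libraries lay above all H8 libraries in 16 members at 16 h and in 11 at 24 h, against 6.28% and 7.34% of all loci.

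At 36 h member 1 was called higher and member 4 lower in H5 than in H8, against 0.316% and 0.848% of all loci. Member 1 had a log2 fold change of 1.04 ± 0.26 (SE, adjusted p = 0.00846 by edgeR), a call lost without the B or without the C libraries. Member 4 had 3.20, 3.53 and 2.67 CPM in H5 and 11.9, 10.9 and 11.3 CPM in H8, with no overlap and a log2 fold change of -1.86 ± 0.27 (SE, adjusted p = 9.71e-07 by edgeR). With the replicate letter as a block within each time, 2 members were called higher at 36 h, member 7 being added, and member 4 was again called lower. All H5 libraries were above all H8 libraries in 12 members, against 11.4% of all loci.

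At 48 h no member was called higher in H5 than in H8, with 0.177% of all loci called. Member 4 was called lower, against 0.263% of all loci, with a log2 fold change of -1.04 ± 0.25 (SE, adjusted p = 0.0158 by edgeR). That call was lost without the B libraries, without the C libraries and with the replicate block, which left 0 calls and gave member 4 a log2 fold change of -0.99, short of the minimum. The fold changes of the 23 members at 48 h ranged from -1.04 to 0.89 with a median of 0.30. By edgeR 7 members had an unadjusted p under 0.05, for which the share of all loci is not given here. DESeq2 and limma likewise called 0 members higher and 1 lower. The highest value was that of member 23, with a log2 fold change of 0.89 and an edgeR adjusted p of 0.0798. All H5 libraries were above all H8 libraries in 7 members, against 6.61% of all loci.

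**Figure D2:**
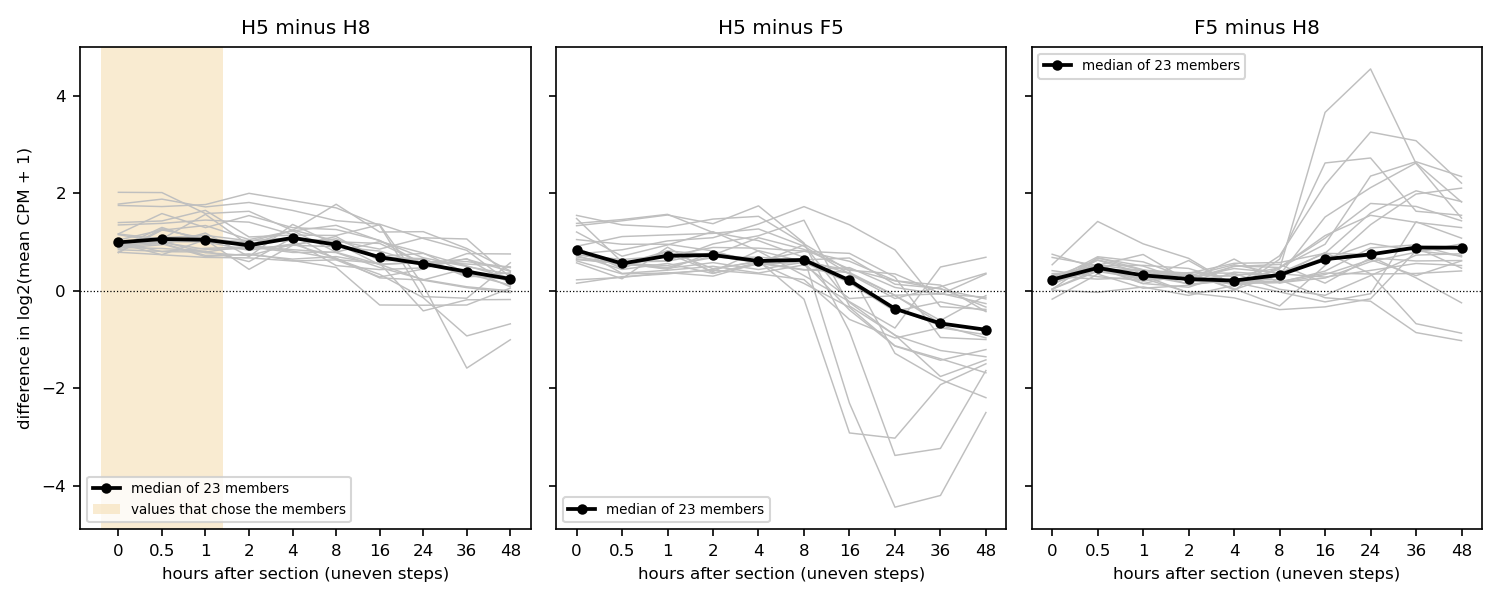
Difference in log2(mean CPM + 1) between series at each of 10 times (uneven steps) for H5 minus H8, H5 minus F5 and F5 minus H8, one thin line per member and the median in black, with the values behind G shaded. The median H5 minus H8 difference was 0.93, 1.09 and 0.95 at 2, 4 and 8 h, then 0.69 at 16 h, 0.56 at 24 h, 0.40 at 36 h and, in the last samples at 48 h, 0.25.

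The change of the difference itself was tested as an interaction, the log2 fold change of H5 over H8 at 48 h minus that at 2 h. It was called negative in members 1, 2, 3, 4, 5, 6 and 10 and positive in none, against 0.0718% and 0.335% of all loci. Its median over the 23 members was -0.80, with a range of -2.56 to 0.11. The selection took loci with H5 above H8 in the first hour, which favours a positive difference at 2 h. It thus favours a negative change, and the shares of all loci are without this selection. Member 4 had the most negative change, -2.56 ± 0.38 (SE, adjusted p = 1.07e-05 by edgeR), followed by member 3 at -2.24 ± 0.57 (SE, adjusted p = 0.049 by edgeR) and member 2 at -1.92 ± 0.36 (SE, adjusted p = 0.000948 by edgeR). Member 5 changed by -1.81 ± 0.30 (SE, adjusted p = 0.000108 by edgeR).

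Fewer of these interaction calls were made whichever replicate letter was left out, which leaves 2 libraries a group. Without the A libraries, members 4 and 5 were called, without the B libraries members 2 and 4, and without the C libraries members 2, 4 and 5. Member 4 was called in each of these fits. With the replicate block, the 7 calls were kept.

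The 3 series moved differently between 2 and 48 h. In H5, 1 member rose and 5 fell at 48 h relative to 2 h, against 6.21% of all loci that rose and 3.06% that fell. In F5, 13 members rose and none fell, against 5.73% and 3.54% of all loci. In H8, 8 members rose and none fell, against 5.62% and 2.67% of all loci. The selection took loci high in H5 and low in H8, and dropped those well above both ends in H5 and F5. It can thus favour falls in H5 and rises in F5 and H8, and the shares of all loci are without this selection. The median member changed by -0.34 in H5, 1.20 in F5 and 0.27 in H8 on the log2 scale.

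The members that fell in H5 were 7, 9, 12, 16 and 22. Member 12 had 17.8, 17.6 and 16.9 CPM in H5 at 48 h, against 48.4, 50.5 and 44.4 CPM at 2 h. The libraries of each time lay close together, and the log2 fold change was -1.52 ± 0.19 (SE, adjusted p = 5.01e-10 by edgeR). Member 9 had 10.2, 9.55 and 9.50 CPM in H5 at 48 h, against 26.5, 22.0 and 28.2 CPM at 2 h, a log2 fold change of -1.45 ± 0.24 (SE, adjusted p = 1.05e-06 by edgeR). The same locus rose in F5, with 36.2, 30.5 and 33.5 CPM at 48 h, against 16.3, 10.6 and 18.5 CPM at 2 h, a log2 fold change of 1.06 ± 0.23 (SE, adjusted p = 0.000198 by edgeR). It was the only member called in opposite directions in H5 and F5. In 6 members (1, 2, 9, 13, 16 and 18) every H5 library was lower and every F5 library higher at 48 h than at 2 h, against 1.69% of all loci.

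The 8 members that rose in H8 were 2, 3, 4, 5, 6, 10, 11 and 19. Member 5 had 21.0, 28.0 and 27.6 CPM in H8 at 48 h, against 3.94, 3.24 and 5.05 CPM at 2 h, a log2 fold change of 2.59 ± 0.23 (SE, adjusted p = 3.14e-15 by edgeR). In H5 it had 17.9, 22.9 and 26.6 CPM at 48 h, so that the ranges of H5 and H8 overlapped at that time, and the 48 h to 2 h change in H5 was 0.78 and below the fold-change minimum. Member 10 rose in all 3 series. It had 163, 163 and 179 CPM in H5 at 48 h against 70.7, 84.3 and 79.5 CPM at 2 h, and 218, 277 and 313 CPM in H8 at 48 h against 38.0, 48.3 and 35.0 CPM at 2 h. Its log2 fold change was 1.04 in H5 (SE 0.28, edgeR adjusted p = 0.00346), 1.50 in F5 and 2.67 in H8.

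**Figure D3:**
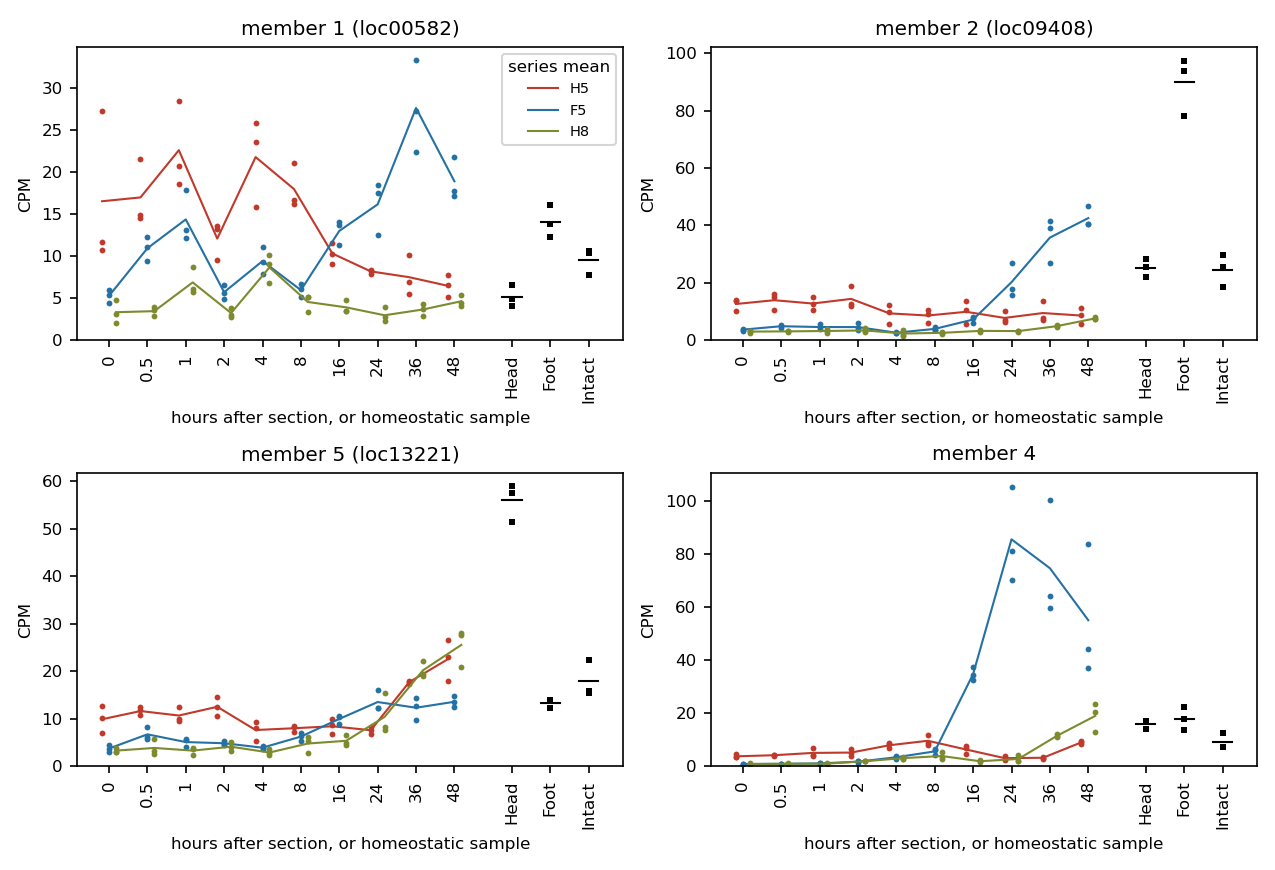
CPM of members 1, 2, 5 and 4 in every library: points are replicates, lines are series means for H5, F5 and H8 over 10 times (uneven steps), with Head, Foot and Intact at the right and the vertical axis starting at 0. Member 2 reaches 46.7, 40.4 and 40.5 CPM in F5 at 48 h, against 8.78, 11.1 and 5.74 CPM in H5 and 7.39, 7.40 and 7.90 CPM in H8.

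In the foot-regenerating F5 tips the members that rose most were 4, 3 and 2. Member 4 had 36.9, 44.4 and 83.9 CPM at 48 h, against 1.78, 1.89 and 1.32 CPM at 2 h, a log2 fold change of 4.94 ± 0.30 (SE, adjusted p = 2.83e-22 by edgeR). Its levels in F5 were already 81.1, 105 and 70.3 CPM at 24 h, when it had 2.67, 3.91 and 2.44 CPM in H5 and 4.04, 1.94 and 2.09 CPM in H8. No library of H5 or H8 at 24 h approached the F5 range.

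Member 3 had 26.4, 23.3 and 27.9 CPM in F5 at 48 h, against 2.60, 1.05 and 1.81 CPM at 2 h, a log2 fold change of 3.74 (edgeR adjusted p = 2.89e-11). At 24 h it had 0.742, 0.727 and 0.341 CPM in H5, 15.4, 19.3 and 12.2 CPM in F5 and 1.24, 0.621 and 0.348 CPM in H8, so H5 and H8 overlapped at low levels. Member 2 had 46.7, 40.4 and 40.5 CPM in F5 at 48 h, against 6.06, 3.40 and 4.14 CPM at 2 h. Its log2 fold change was 3.14 ± 0.27 (SE, adjusted p = 8.26e-16 by edgeR). Its F5 level at 48 h lay below its Foot level of 78.3 to 97.4 CPM and above its Intact level of 18.4 to 29.6 CPM.

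Member 1 had 17.7, 17.2 and 21.8 CPM in F5 at 48 h, against 5.65, 4.95 and 6.52 CPM at 2 h, a log2 fold change of 1.64 (edgeR adjusted p = 2.41e-07). Its Foot libraries had 16.0, 13.8 and 12.2 CPM. In H5 the same locus had 7.79, 6.52 and 5.10 CPM at 48 h, all below its 2 h libraries, and its log2 fold change of -0.95 was short of the minimum for a call (edgeR adjusted p = 0.00244). Members 13, 14, 15, 18, 20 and 21 were called in no series between 2 and 48 h.

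**Figure D4:**
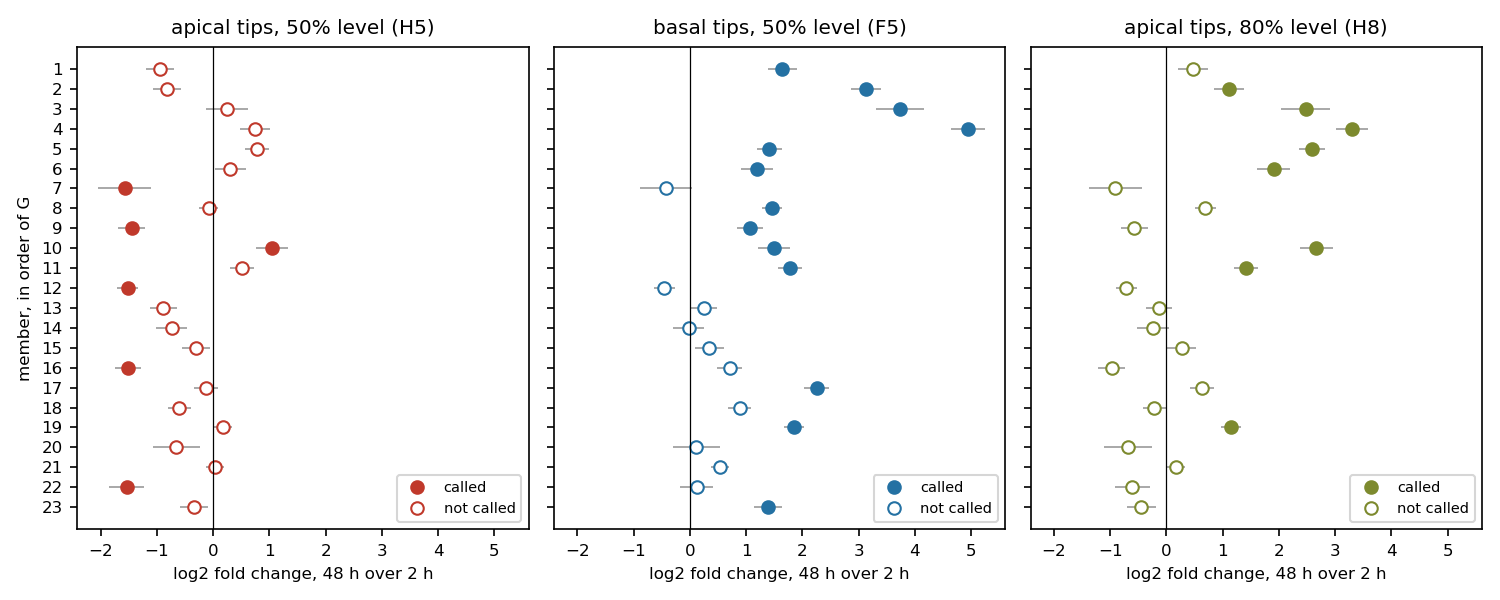
Log2 fold change of 48 h over 2 h (horizontal axis) for each member in order of G (vertical axis) in the H5, F5 and H8 series, with bars for 1 SE; filled points are called. Of 23 members, 1 rose and 5 fell in H5, 13 rose in F5 and 8 rose in H8.

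The foot-regenerating tips were also set against each head-regenerating series. Averaged over 2, 4 and 8 h, 6 members (1, 2, 3, 4, 6 and 8) were higher in H5 than in F5 and none lower, against 0.393% and 0.469% of all loci. The fold changes were positive in all 23 members, from 0.38 to 1.84 on the log2 scale with a median of 0.68. The selection took loci high in H5 and low in H8, which can favour H5 over F5 and F5 over H8. The shares of all loci are without this selection. Over the same times no member was called between F5 and H8, against 0.206% of all loci called higher and 0.642% called lower. By edgeR 15 members had an unadjusted p under 0.05 in F5 over H8. By the same test 6 members had an adjusted p under 0.05 at a smaller fold change. The shares of all loci at these limits are not given here. DESeq2 and limma called 0 members. The median log2 fold change of F5 over H8 was 0.34, with a range of -0.18 to 0.94.

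At 48 h the order had changed. In H5, 10 members (1, 2, 3, 4, 9, 16, 17, 18, 22 and 23) were lower than in F5 and none was higher, against 3.75% and 4.21% of all loci, with a median log2 fold change of -0.79. In F5, 11 members were higher than in H8 (1, 2, 3, 4, 9, 16, 17, 18, 19, 22 and 23) and member 10 was lower, against 4.98% and 5.47% of all loci, with a median of 0.91. These comparisons share the F5 libraries of 48 h, so their calls are not independent. Member 2 had a log2 fold change of -2.29 in H5 over F5 (edgeR adjusted p = 1.45e-11) and 2.50 in F5 over H8 (edgeR adjusted p = 5.68e-13). The group mean of F5 lay between those of H5 and H8 in 20 members at 2 h, in 22 at 4 h, in 19 at 8 h and in 0 at 48 h. The median H5 minus H8 difference was 0.93, 1.09 and 0.95 log2 units at 2, 4 and 8 h and 0.25 at 48 h. F5 thus had less room between H5 and H8 at 48 h, and the share over all loci was not counted.

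Tips at 2 h were compared with intact animals. The selection did not use Intact, but it took loci low in H8 and used Head and Foot, which whole animals contain. At 0 h, 11 of 23 members were above Intact in H5, 4 in F5 and 0 in H8. Calls below Intact are thus favoured by the rule in H8 and F5, and the shares are over unselected loci. In H5 at 2 h, member 10 was lower than in Intact and no member was higher, against 5.93% and 1.14% of all loci. In F5 at 2 h, 9 members were lower and none higher, against 5.76% and 1.65% of all loci. In H8 at 2 h, 11 members were lower and none higher, against 4.76% and 1.25% of all loci. The median log2 fold change over Intact was 0.17 in H5, -0.49 in F5 and -0.87 in H8, and the 3 comparisons share the Intact libraries.

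Members 2, 3, 4, 5, 6, 8, 10, 11 and 17 were lower than Intact in both F5 and H8 at 2 h, and members 1 and 19 in H8. Member 2 at 2 h had 11.8 to 18.8 CPM in H5, 3.40 to 6.06 CPM in F5 and 2.79 to 4.30 CPM in H8, against 25.6, 29.6 and 18.4 CPM in Intact. Its H5 libraries reached into the Intact range, and its F5 and H8 libraries did not. Its log2 fold change over Intact was -2.83 in H8 (edgeR adjusted p = 1.24e-13) and -0.70 in H5, where it was not called. Member 10 was the only member called lower in H5, with a log2 fold change of -1.33 (edgeR adjusted p = 0.000266). Without the A libraries member 4 was called lower in H5 as well, and without the C libraries member 11, which gave 2 calls each.

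Replicates of a group differed by a median coefficient of variation of 17.3% over the members and groups. In some members the spread followed the replicate letter. Replicate C was the highest library in 24 of 33 groups for member 7, in 23 for member 20 and in 24 for member 15. The median ratio of C to A was 1.78 for member 7 and 1.72 for member 20, and their median coefficients of variation were 30.8% and 34.8%. The widest spread of any member in a group was that of member 7 in H8 at 16 h, with 106, 293 and 642 CPM in replicates A, B and C. Its C libraries were also high in H5 and F5, and what the letters stand for beyond biological replicates was not tested.

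**Figure D5:**
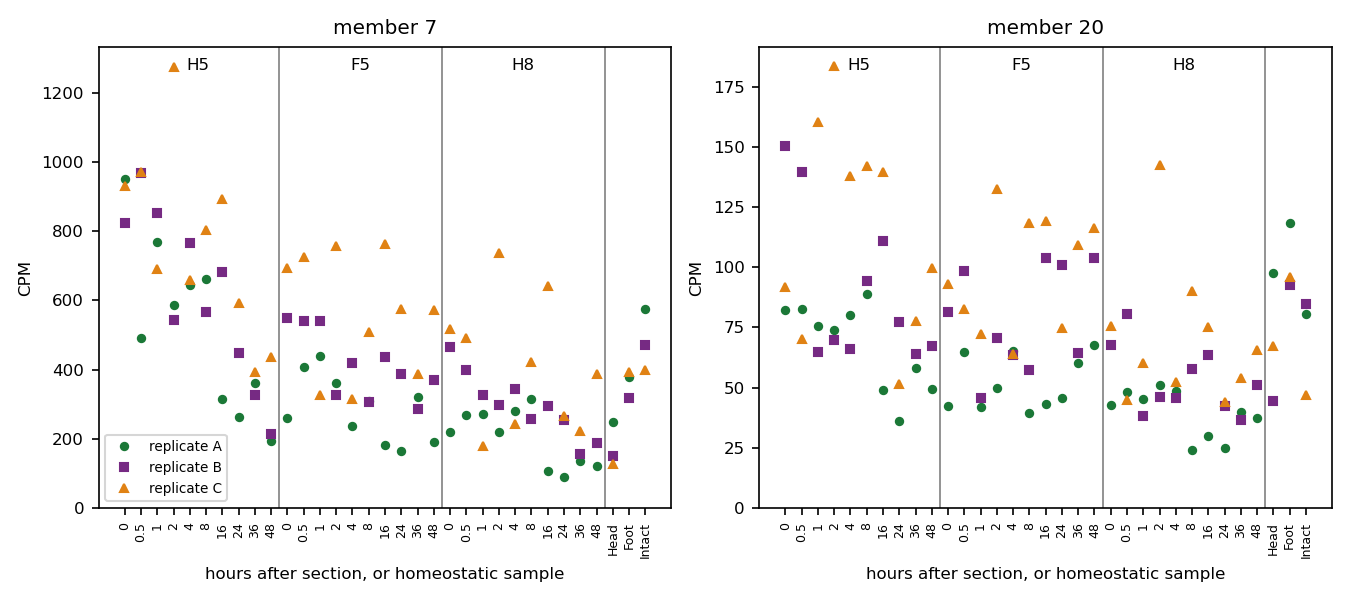
CPM of members 7 and 20 in replicates A, B and C of each of the 33 groups (H5, F5 and H8 by hours after section, then Head, Foot and Intact), with the vertical axis starting at 0. Replicate C is the highest library in 24 groups for member 7 and in 23 for member 20.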

How the data were processed

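Per the labels' protocols, polyA RNA was made into directional TruSeq libraries. The main table, deposited by the authors, gives whole-number read counts of 79774 transcript sequences. The submitters' processing notes list cutadapt 1.11, Salmon 0.7.2 and DESeq2 without their roles, so that the counts may be rounded estimates. The reference transcriptome is not given in the sources used here. A second table holds a signal normalized by the authors for 40479 of the sequences, and served for 1 alternative.

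Counts were summed over the sequences of each locus, which merges splice forms and any copies assembled under one locus name. The score and levels used CPM by library total. Tests used edgeR 4.0.16 in R 4.3.3 (quasi-likelihood, legacy method), with TMM factors of 0.876 to 1.17, loci kept by filterByExpr (20883 loci, with 99.98% of the reads) and 1 coefficient per group over all 99 libraries. Calls needed a Benjamini-Hochberg adjusted p below 0.05 and a log2 fold change of 1 or more in size. An SE is the log2 fold change divided by the root of F. Each group had 3 replicates, and a p-value sets a difference against the spread between pooled-animal samples. That spread was estimated over all 99 libraries and not from the compared groups alone. The main fit had no replicate block.

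The members, lists and tests were chosen with earlier results of these data known. At most 4 identifiers were named, among members with a mean of at least 10 CPM in H5 at 2 h: the 2 with the largest called differences at 2 h and no overlap of libraries, and the 2 with the most negative interactions. Member 2 was named under both. Other members are called by number.

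Same-lettered replicates deviated together (correlation over 0.1 in every pair, over 9219 loci) in 11 of 18 comparisons, including all 7 of H5 with H8, with correlations of 0.114 to 0.836. Alternatives were RLE size factors, DESeq2 1.42.0, limma 3.58.1 on the authors' normalized signal, no filter, no fold-change minimum, the newer quasi-likelihood method, the libraries of a contrast alone, a replicate block, and each replicate left out. Tests were checked on simulated data. Figures were drawn with matplotlib 3.10.9.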

Additional observations from a re-analysis of the deposited data

Results flagged for a closer look

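The H5 over H8 difference was called lower at 48 h than at 2 h in 7 members by edgeR's interaction test over 20883 loci. Of all loci, 0.0718% were called lower and 0.335% higher. These shares are without the selection, which took loci with H5 above H8 early and so favours a lower difference later. With 1 replicate letter left out, 2 to 3 members were called. The log2 change was -2.56 in member 4 (edgeR adjusted p = 1.07e-05), -2.24 in member 3 (0.049), -1.92 in member 2 (0.000948), -1.81 in member 5 (0.000108), -1.63 in member 10 (0.0319), -1.60 in member 6 (0.0335) and -1.41 in member 1 (0.049).

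In 6 members every H5 library was lower at 48 h than at 2 h while every F5 library was higher. This pattern was seen in 1.69% of all loci tested, without the selection, which can favour falls in H5 and rises in F5. H5 and F5 tips come from the same 50% level. The log2 fold change of 48 h over 2 h was -0.95 in H5 and 1.64 in F5 for member 1, -0.81 in H5 and 3.14 in F5 for member 2, and -1.45 in H5 and 1.06 in F5 for member 9. It was -0.88 in H5 and 0.25 in F5 for member 13, -1.51 in H5 and 0.71 in F5 for member 16, and -0.60 in H5 and 0.89 in F5 for member 18. These differences between H5 and F5 were not tested.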

How the results depend on the processing

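Over 216 counts of called members recomputed under alternatives, 196 were within 1.5 times of the value given and 20 were not. Of 4968 fold changes of single members, 4771 kept their side of the threshold, 86 lost a call, 111 gained one and 0 called values changed sign. Fitting only the libraries of a comparison gave 5 calls in H5 over H8 at 4 h, 4 of them among the 15 of the main fit. It gave 0 at 48 h. The replicate block within each time gave 0 calls at 48 h and changed no other count by over 1.5 times; the calls it added were those of members 7 and 20, and it changed no other call of a member. Without a fold-change minimum, H5 over H8 had 7 calls at 24 h and 7 at 36 h. F5 over H8 at 2 to 8 h then had 6, and H5 over F5 at 2 to 8 h had 20. H5 at 48 h over 2 h had 13, and H5 at 2 h over Intact had 7. The shares of all loci without this minimum are not given here, so nothing is read from these counts. Leaving out one replicate letter gave ranges of 9 to 11 calls in H5 over H8 at 2 h, 11 to 16 at 4 h, 10 to 11 at 8 h, 3 to 8 at 16 h, 1 to 3 at 24 h, 1 to 3 at 36 h and 0 to 1 at 48 h. It gave 2 to 3 calls of the interaction, 5 to 7 of 48 h over 2 h in H5, 12 to 13 in F5 and 8 to 9 in H8. It gave 1 to 2 calls over Intact in H5, 9 to 10 in F5 and 11 in H8. H5 over F5 had 6 calls at 2 to 8 h in each of these fits and 9 to 10 at 48 h, and F5 over H8 had 0 at 2 to 8 h and 10 to 12 at 48 h. TMM-scaled CPM selected all 23 members, and the authors' normalized values selected 24 loci, 23 of them members. The causes of these changes were not tested, beyond that a letter left out leaves 2 libraries a group. Differences under the fold-change minimum were not called at any depth.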

Other observations

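Members differed in the course they took within H5. Their highest H5 mean fell at 2 h in 6 members, at 48 h in 6 and at 8 h in 4, and their lowest H5 mean fell at 24 h in 8 and at 48 h in 6. In F5, the highest mean fell at 48 h in 12 members and the lowest at 0 h in 10.

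The H5 mean of member 15 was higher at 8 h than at 4 or 16 h. At 8 h it had 18.3, 19.4 and 19.3 CPM in H5, 10.0, 14.7 and 13.7 CPM in F5 and 6.05, 10.1 and 8.60 CPM in H8. At 16 h it had 10.4, 13.3 and 15.7 CPM in H5, 12.4, 14.8 and 17.1 CPM in F5 and 7.81, 7.67 and 9.23 CPM in H8, so that its F5 mean was higher at 16 h than at 8 h. By 48 h it had 7.40, 7.94 and 8.04 CPM in H5, 6.03, 7.60 and 11.5 CPM in F5 and 5.33, 5.08 and 6.98 CPM in H8. Member 17 had a trough in both head-regenerating series, with 4.73, 5.19 and 5.46 CPM in H5 and 5.48, 6.22 and 7.74 CPM in H8 at 16 h, while it had 48.5, 45.5 and 41.4 CPM in F5. Its H5 libraries had 14.7, 15.9 and 13.9 CPM at 48 h.

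The leading sequences of members 7 and 20, and those of members 11 and 21, carry consecutive numbers in their identifiers. Over the 33 group means, which share libraries and depth, the Pearson correlation was 0.77 for members 7 and 20 and 0.62 for members 11 and 21. The 33 groups include those that chose the members, which gives members a shared pattern. Other pairs of members were not correlated, so nothing is read from these values. Whether members 7 and 20, or members 11 and 21, belong to one transcription unit was not tested.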
